A study of Rattus norvegicus with 20 samples.

Results

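Endocannabinoids are lipid messengers of the brain, and 7 genes of their receptor and metabolism were examined here. The tissue was the nucleus accumbens, part of the reward circuit, from rats that self-administered cocaine. The genes are Cnr1, Dagla, Daglb, Napepld, Mgll, Abhd6 and Faah. They were taken by symbol from a table of 17296 gene symbols, and all 7 were found there. Male Sprague-Dawley rats drank 1 of 4 solutions. The H2O group (n = 5) had water and a normal microbiome, and the Abx group (n = 4) had antibiotics, which depleted the microbiome. The SCFA group (n = 6) drank the bacterial metabolites called short-chain fatty acids, and the Abx_SCFA group (n = 5) drank them together with antibiotics. All rats took cocaine, so that the water group is a control for the drinking solution only. The rats were 7 to 9 weeks old and lived 2 to a cage. The labels do not say which rats shared a cage, so that p-values measure the spread between libraries, each counted as a separate rat.

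Endocannabinoid signalling runs backwards across the synapse. An active postsynaptic neuron makes 2-arachidonoylglycerol (2-AG) and anandamide on demand, and these lipids act on the CB1 receptor on presynaptic terminals, where they lower transmitter release. In the striatum this brake acts on both glutamate and GABA synapses and takes part in long-term depression. Diacylglycerol lipases make 2-AG, and monoacylglycerol lipase removes most of it. Anandamide is released by a phospholipase D and hydrolysed by fatty acid amide hydrolase.

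Library totals ran from 17525358 to 25731636 counts. Levels are given in CPM, a count relative to its library total after TMM scaling. Medium spiny neurons make up most of the accumbens. All 12 of their markers were detected, which shows that these cells were sampled but does not define the piece dissected. Their summed level spanned 7120 to 9610 CPM among H2O libraries, 6710 to 9770 among Abx libraries, 4200 to 9020 among SCFA libraries and 7450 to 8990 among Abx_SCFA libraries. All 12 had a negative fold change in SCFA vs H2O, with a median log2 value of -0.33. A positive one was found for 48.9% of all genes. By edgeR 0 of the 12 passed at an adjusted p below 0.05, as did 0% of all genes. At an unadjusted p below 0.05 there were 2, beside 13.8% of all genes. Markers of excitatory neurons of the cortex were detected too and differed widely between libraries. Their summed level spanned 123 to 553 CPM among H2O libraries, 222 to 1000 among Abx libraries, 244 to 2070 among SCFA libraries and 320 to 747 among Abx_SCFA libraries. One of them, Slc17a7, ran from 3.09 CPM in H2O replicate 3 to 1060 CPM in SCFA replicate 5. All 8 had a positive fold change in SCFA vs H2O, with a median log2 value of 2.69. In edgeR 0 of the 8 passed, and 7 had an unadjusted p below 0.05. Every rat given fatty acids has a number above 400 and every other rat a number below it. In comparisons of groups with and without fatty acids, the treatment and the number series therefore cannot be told apart.

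The promoter regions of 5 of the 7 genes, from 250 bases before to 50 after the start of the gene, are held in a RefSeq table of the build GRCr8, and were matched by symbol. Cnr1 and Dagla had no entry. The regions of Mgll, Daglb and Abhd6 are shown because these transcripts gave the most alike and the most unlike pair among the genes with an entry and a tested level. Over the 20 libraries, Mgll and Daglb had a Pearson r of 0.53 and Abhd6 and Daglb one of -0.57 (log2 CPM). Capitals mark matches, on both strands, to TGACGTCA (the cyclic AMP response element), CACGTG (the E-box), GGGCGG (the GC box), CCAAT or TATAAA. No match overlapped another.
Mgll, chr4:122749186-122749485, plus strand: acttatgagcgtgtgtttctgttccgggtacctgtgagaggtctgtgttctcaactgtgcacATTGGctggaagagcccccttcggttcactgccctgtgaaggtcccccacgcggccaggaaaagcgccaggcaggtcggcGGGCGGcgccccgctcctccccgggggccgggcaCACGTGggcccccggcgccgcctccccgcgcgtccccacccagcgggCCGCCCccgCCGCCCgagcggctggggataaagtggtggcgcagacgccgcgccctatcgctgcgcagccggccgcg
Daglb, chr12:16215709-16216008, minus strand: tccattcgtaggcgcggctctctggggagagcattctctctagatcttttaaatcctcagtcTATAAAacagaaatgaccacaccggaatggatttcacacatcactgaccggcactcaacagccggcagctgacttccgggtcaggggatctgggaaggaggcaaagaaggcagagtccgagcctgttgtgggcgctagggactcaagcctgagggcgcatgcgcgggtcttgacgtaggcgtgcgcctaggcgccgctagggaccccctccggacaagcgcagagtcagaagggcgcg
Abhd6, chr15:19337144-19337443, minus strand: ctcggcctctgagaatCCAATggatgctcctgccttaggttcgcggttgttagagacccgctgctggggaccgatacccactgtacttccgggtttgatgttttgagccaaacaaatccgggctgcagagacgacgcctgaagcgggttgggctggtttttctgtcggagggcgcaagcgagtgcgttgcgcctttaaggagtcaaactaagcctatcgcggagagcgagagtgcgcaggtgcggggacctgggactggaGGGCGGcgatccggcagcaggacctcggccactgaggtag
The Mgll region held 3 GC boxes, 1 E-box and 1 CCAAT match, that of Abhd6 1 GC box and 1 CCAAT match, and that of Daglb 1 TATAAA match at -188. GC boxes occur in 33.1% of the 33469 regions of this length in the table, CCAAT in 37.5%, TATAAA in 14.2%, the E-box in 6.42% and the cyclic AMP response element in 1.83%. The cyclic AMP response element was in none of the 5 member regions. All 3 regions shown were richer in G and C (72.3% in Mgll, 60.3% in Abhd6 and 59.0% in Daglb) than the median region of the table (51.7%).

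Cnr1, which encodes the CB1 receptor, varied most among the 6 members with enough counts to be tested. Its level was 81.0, 112, 84.6, 83.2 and 104 CPM in the 5 H2O libraries, 139, 87.4, 127 and 185 CPM in the 4 Abx libraries, and 116, 133, 115, 140 and 125 CPM in the 5 Abx_SCFA libraries. In the 6 SCFA libraries it ran from 96.9 to 243 CPM with a median of 145. All 5 Abx_SCFA libraries lay above the highest H2O library, as did 3 of 4 Abx and 3 of 6 SCFA libraries. Ranges that do not overlap between Abx_SCFA and H2O were found for 1.42% of the 12846 genes tested. No other comparison of groups had a member whose ranges did not overlap, against 2.46% of all genes in Abx vs H2O, 0.537% in SCFA vs H2O, 1.2% in Abx_SCFA vs Abx and 0.56% in Abx_SCFA vs SCFA.

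The order of the Cnr1 means was H2O (92.8 ± 13.9 CPM, SD), Abx_SCFA (126 ± 10.8), Abx (135 ± 40) and SCFA (155 ± 60.3). Abx_SCFA and Abx, and Abx and SCFA, differed by less than the SD within these groups. The log2 fold change against H2O was 0.74 ± 0.22 (SE) in SCFA, 0.54 ± 0.24 in Abx and 0.44 ± 0.23 in Abx_SCFA. None passed in the quasi-likelihood test of edgeR, with Benjamini-Hochberg adjusted p of 0.247, 0.563 and 0.815 over all genes. These 3 comparisons share the same H2O libraries. In bulk tissue, fewer cells of a type and less RNA per cell cannot be told apart, which holds for every level given here.

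**Figure D1:**
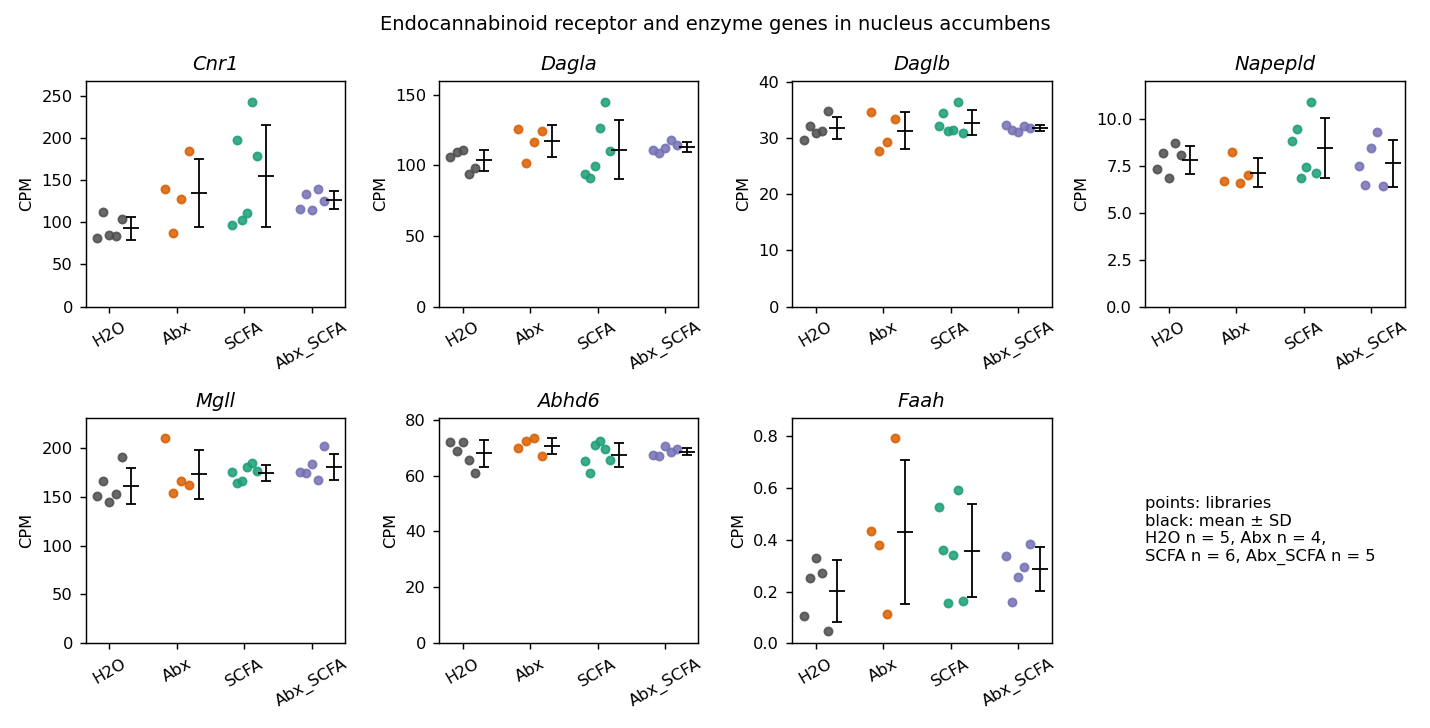
Level of each of the 7 genes in CPM (vertical axes, from 0) in each library, by treatment group, with the group mean and SD in black. Cnr1 spans 81 to 243 CPM with its 3 highest SCFA libraries above all H2O libraries, while Abhd6 stays between 60.8 and 73.3 CPM, and Faah lies below 1 CPM throughout.

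The fold change of Cnr1 in SCFA rested in part on 2 libraries with the highest cortical markers. SCFA replicates 5 and 2 had 243 and 198 CPM of Cnr1, and 1060 and 695 CPM of Slc17a7, which loads glutamate into vesicles of cortical neurons. These 2 libraries also had the lowest scores of medium spiny neuron markers (8.07 and 8.14, mean log2 CPM, against at least 8.77 in the other libraries). The order of Cnr1 did not follow Slc17a7 throughout. Among the Abx libraries, replicate 1 had the most Slc17a7 (506 CPM) with 139 CPM of Cnr1, replicate 4 had 458 CPM with 185, replicate 3 had 183 CPM with 127, and replicate 2 had 43.7 CPM with 87.4. Without SCFA replicates 2 and 5 the log2 fold change of SCFA against H2O was 0.40 (adjusted p = 0.864). With the score of cortical markers as a covariate it was -0.03 in SCFA, -0.09 in Abx and -0.13 in Abx_SCFA. The interaction, which asks whether antibiotics act differently with and without fatty acids, was -0.84 ± 0.33 for Cnr1 (adjusted p = 0.622) and -0.01 with that covariate.

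Among the genes of synthesis, Dagla encodes the diacylglycerol lipase that makes most 2-AG of neurons. It stood at 106, 110, 111, 93.7 and 98.6 CPM in H2O, 126, 102, 117 and 124 CPM in Abx, and 111, 109, 112, 118 and 115 CPM in Abx_SCFA. In SCFA it ran from 91.1 to 145 CPM with a median of 105. SCFA thus held both the lowest library (replicate 2) and the highest (replicate 5), and its range covered those of all other groups. In order of the means, H2O had 104 ± 7.39 CPM (SD), SCFA 111 ± 21.1, Abx_SCFA 113 ± 3.73 and Abx 117 ± 11.2. No neighbours differed by more than the larger of their SDs. The log2 fold change against H2O was 0.18 ± 0.11 (SE) in Abx, 0.12 ± 0.10 in Abx_SCFA and 0.10 ± 0.097 in SCFA (adjusted p from 0.644 to 0.839). Without SCFA replicate 5 the value in SCFA was 0.015. With the cortical covariate the values were 0.084 in Abx, 0.037 in Abx_SCFA and -0.005 in SCFA.

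Daglb, the second diacylglycerol lipase, is known for its part in microglia and macrophages. It was nearly level, with a mean of 31.7 ± 1.97 CPM in H2O, 32.7 ± 2.23 in SCFA, 31.2 ± 3.28 in Abx and 31.7 ± 0.478 in Abx_SCFA (SD). Its 20 libraries ran from 27.7 to 36.4 CPM, and the 95% interval of the log2 fold change against H2O was -0.17 to 0.12 in Abx, -0.09 to 0.18 in SCFA and -0.14 to 0.14 in Abx_SCFA.

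Napepld encodes the phospholipase D that releases anandamide from its membrane precursor. Its counts were low, from 116 to 276 per library, and its mean was 7.82 ± 0.737 CPM in H2O, 8.43 ± 1.59 in SCFA, 7.14 ± 0.748 in Abx and 7.62 ± 1.25 in Abx_SCFA (SD). The groups overlapped in every pair, although 3 of 6 SCFA libraries lay above the highest H2O library and 2 of 4 Abx libraries below the lowest. The log2 fold change against H2O was -0.13 ± 0.14 (SE) in Abx, 0.11 ± 0.13 in SCFA and -0.04 ± 0.13 in Abx_SCFA. Without SCFA replicate 5 the value in SCFA was 0.024, and with the cortical covariate it was -0.049 in SCFA and -0.26 in Abx. Its intervals were the widest of the enzymes tested, from -0.43 to 0.17 in Abx vs H2O.

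Among the genes of breakdown, Mgll encodes monoacylglycerol lipase, which hydrolyses 2-AG in the presynaptic terminal. It stood at 151, 166, 144, 152 and 190 CPM in H2O, 210, 153, 166 and 162 CPM in Abx, and 175, 174, 183, 167 and 201.8 CPM in Abx_SCFA. In SCFA it ran from 164 to 185 CPM with a median of 175. H2O replicate 5 stood above all SCFA libraries, and without it the other 4 H2O libraries reached 166 CPM at most. The means were ordered H2O (161 ± 18.2 CPM, SD), Abx (173 ± 25.2), SCFA (174 ± 8.16) and Abx_SCFA (180 ± 13.4), and neighbours differed by less than the SD within groups. The log2 fold change against H2O was 0.17 ± 0.083 (SE) in Abx_SCFA, 0.12 ± 0.08 in SCFA and 0.10 ± 0.088 in Abx (adjusted p = 0.815, 0.55 and 0.738). Without H2O replicate 5 these were 0.24, 0.19 and 0.18, and none passed. Without Abx replicate 1, the highest Mgll library, the value in Abx vs H2O was 0.002. With the cortical covariate the values were 0.051 in Abx_SCFA, -0.025 in SCFA and -0.02 in Abx.

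Abhd6, a membrane hydrolase of 2-AG on the postsynaptic side, was the steadiest member. All 20 libraries lay between 60.8 and 73.3 CPM, and the mean was 67.9 ± 4.77 CPM in H2O, 67.4 ± 4.24 in SCFA, 70.6 ± 2.82 in Abx and 68.6 ± 1.4 in Abx_SCFA (SD). The SD of its log2 level was 0.076, and 95.2% of the genes tested had a larger one, against 12.1% for Cnr1 (SD 0.44). The 95% interval of the log2 fold change against H2O was -0.06 to 0.18 in Abx, -0.12 to 0.10 in SCFA and -0.10 to 0.13 in Abx_SCFA.

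Faah encodes fatty acid amide hydrolase, the main enzyme of anandamide breakdown. It had only 2, 5, 6, 6 and 1 counts in H2O, 11, 8, 2 and 20 in Abx, 3 to 15 in SCFA, and 7, 3, 6, 6 and 10 in Abx_SCFA. Some libraries were at or under the 3 counts that a count of 0 allows, in every group, and the 140 counts of all 20 libraries did not suffice to pass the filter on low counts. Faah was therefore not tested with the other 6 genes. Its level was 0.201 ± 0.12 CPM in H2O, 0.357 ± 0.18 in SCFA, 0.43 ± 0.279 in Abx and 0.286 ± 0.0848 in Abx_SCFA (SD), with all groups overlapping.

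Across the 6 contrasts, edgeR called 0 of the 6 tested members at an adjusted p below 0.05. The same test called 0% of the 12846 genes in each contrast. DESeq2 and limma-voom called 0 members as well, and their shares of all genes called are not given here. At an unadjusted p below 0.05 in edgeR without a covariate, Cnr1 alone counted. It did so in Abx vs H2O, SCFA vs H2O and the interaction, where 8.79%, 13.8% and 7.85% of all genes did. In Abx_SCFA vs H2O, Abx_SCFA vs Abx and Abx_SCFA vs SCFA no member counted, against 5.56%, 3.19% and 6.78% of all genes. With 1 of 6 members at most, these counts are not read as a result about the members. A positive fold change was found for 4, 5 and 4 members in Abx, SCFA and Abx_SCFA against H2O, where 47.7%, 48.9% and 47.6% of all genes had one. It was found for 3 members in Abx_SCFA vs Abx, 3 in Abx_SCFA vs SCFA and 0 in the interaction, where 49.9%, 45.5% and 51.8% of all genes had one. The median log2 fold change of the 6 members was 0.08, 0.11 and 0.07 in Abx, SCFA and Abx_SCFA against H2O, beside -0.0083, -0.003 and -0.0071 over all genes.

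**Figure D2:**
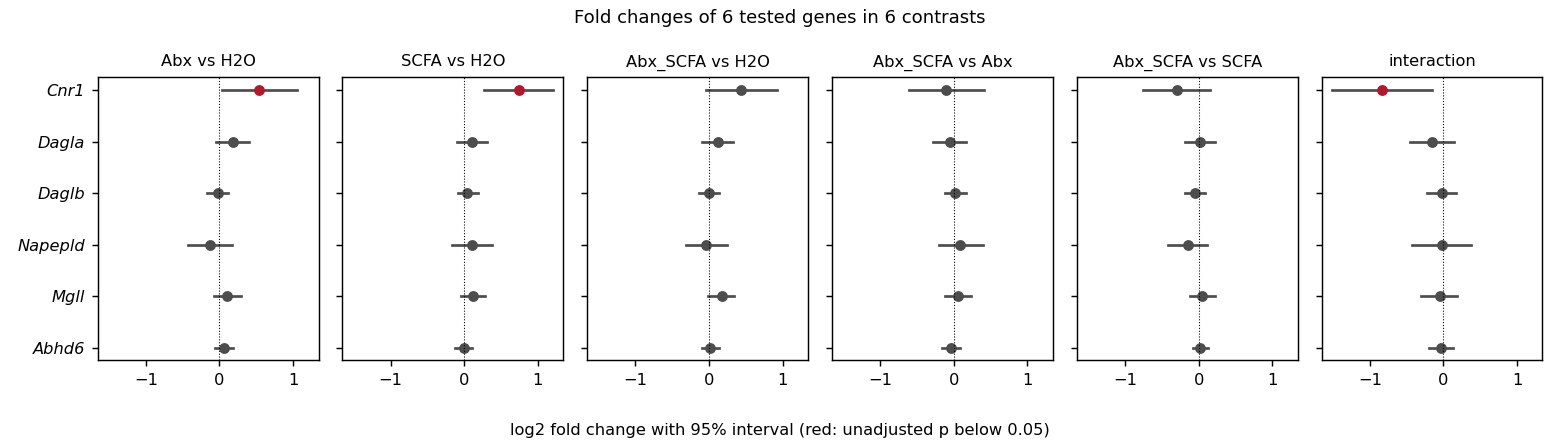
Log2 fold change (horizontal axes) of the 6 tested genes in each contrast, as points with 95% intervals, with an unadjusted p below 0.05 in red. The Cnr1 intervals, 0.27 to 1.21 in SCFA vs H2O, are far wider than those of Abhd6, which all lie within -0.20 and 0.18.

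With fatty acids added to antibiotics, no member passed. In Abx_SCFA vs Abx the log2 fold change of Cnr1 was -0.10 ± 0.24 (SE, 95% interval -0.61 to 0.41), and Dagla, Daglb, Mgll, Abhd6 and Napepld lay between -0.05 and 0.09. The intervals of the 5 enzymes reached no further than -0.28 and 0.39. Adding antibiotics to fatty acids gave -0.30 ± 0.22 for Cnr1 (interval -0.76 to 0.16), and without SCFA replicates 2 and 5 the value was 0.04. The enzymes ran from -0.15 (Napepld) to 0.05 (Mgll) in that comparison. Adjusted p was 0.999 for all 6 members in Abx_SCFA vs Abx and at least 0.783 in Abx_SCFA vs SCFA.

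Beyond these members, 35 further genes of the pathway were listed by role, of which 33 were in the table and 27 passed the filter. None was called in any contrast by edgeR, and at an unadjusted p below 0.05 there were 1 in Abx vs H2O (8.79% of all genes), 6 in SCFA vs H2O (13.8%), 0 in Abx_SCFA vs H2O (5.56%) and in Abx_SCFA vs Abx (3.19%), 3 in Abx_SCFA vs SCFA (6.78%) and 1 in the interaction (7.85%). The median log2 fold change of the list was -0.04 in Abx vs H2O (11 of 27 positive, beside 47.7% of all genes), 0.03 in SCFA vs H2O (14 of 27, beside 48.9%) and 0.02 in Abx_SCFA vs H2O (18 of 27, beside 47.6%).

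Among the other receptors and receptor partners, Cnr2, the CB2 receptor of immune cells, was low, at 2.29 ± 0.441 CPM in H2O, 2.14 ± 0.254 in SCFA, 1.91 ± 0.13 in Abx and 2.22 ± 0.557 in Abx_SCFA (SD). Trpv2, a cation channel activated by cannabinoids, had means of 10.9 ± 2.27 CPM in H2O, 15.7 ± 5.31 in SCFA, 14 ± 3.13 in Abx and 13.3 ± 2.18 in Abx_SCFA. Its log2 fold change in SCFA vs H2O was 0.53 ± 0.20 (SE, edgeR adjusted p = 0.264). Cnrip1, a protein that binds the tail of CB1, had 44.3 ± 2.21 CPM in H2O and 57.0 ± 18.3 in SCFA (SD), and a log2 fold change of 0.36 ± 0.17 between them (adjusted p = 0.358). Over the 20 libraries, Cnrip1 and Trpv2 followed Cnr1 with an r of 0.87 and 0.85, and of 0.88 and 0.79 after the group means were subtracted. Gprasp1, which sorts receptors after endocytosis, had -0.15 ± 0.075 in Abx_SCFA vs Abx (adjusted p = 0.999).

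Among the lipid carriers, the fatty acid binding protein gene Fabp5 had the smallest p of the list in SCFA vs H2O, with 38.1 ± 3.36 CPM in H2O and 52.2 ± 12.1 in SCFA (SD) and a log2 fold change of 0.45 ± 0.14 (SE, edgeR adjusted p = 0.247). In the other fatty acid group, Abx_SCFA, it stood at 42.7 ± 4.15 CPM. Among the genes of synthesis, Pla2g16, an acyltransferase and phospholipase, had 62.5 ± 5.11 CPM in H2O and 50.9 ± 6.41 in Abx (log2 fold change -0.29 ± 0.13, adjusted p = 0.563). Gdpd1, a phosphodiesterase of anandamide precursors, had 0.13 ± 0.055 in Abx_SCFA vs SCFA (adjusted p = 0.732).

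Among the genes of breakdown and oxidation, Naaa, a lysosomal hydrolase of fatty acid ethanolamides, had 11 ± 1.3 CPM in SCFA and 12.9 ± 1.73 in Abx_SCFA (SD). Its log2 fold change was 0.22 ± 0.093 (SE) in Abx_SCFA vs SCFA (edgeR adjusted p = 0.732) and 0.33 ± 0.14 in the interaction (adjusted p = 0.622). The lipoxygenase gene Alox12 had -0.31 ± 0.18 in Abx vs H2O (adjusted p = 0.628). Abhd12, a further 2-AG hydrolase, was steady, with 185 ± 8.02, 185 ± 5.63, 179 ± 7.44 and 189 ± 10.3 CPM in H2O, Abx, SCFA and Abx_SCFA.

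Cell type markers were set against the members over the 20 libraries, as 42 pairs of a tested member and a marker score, the mean log2 CPM of a list. The cortical score was 2.30 ± 1.4 in H2O, 4.71 ± 1.4 in SCFA, 4.35 ± 0.96 in Abx and 4.26 ± 0.59 in Abx_SCFA (SD), so that it differed between groups in the same order as Cnr1 at both ends. Of its 8 markers, Neurod1 was at 0 counts in some H2O libraries, and no marker was at 0 in other groups. Pairs were tested by two-sided permutation with 100000 resamples and adjusted over the 42 pairs. By Pearson's r 8 pairs passed, and by Spearman's rho 2.

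**Figure D3:**
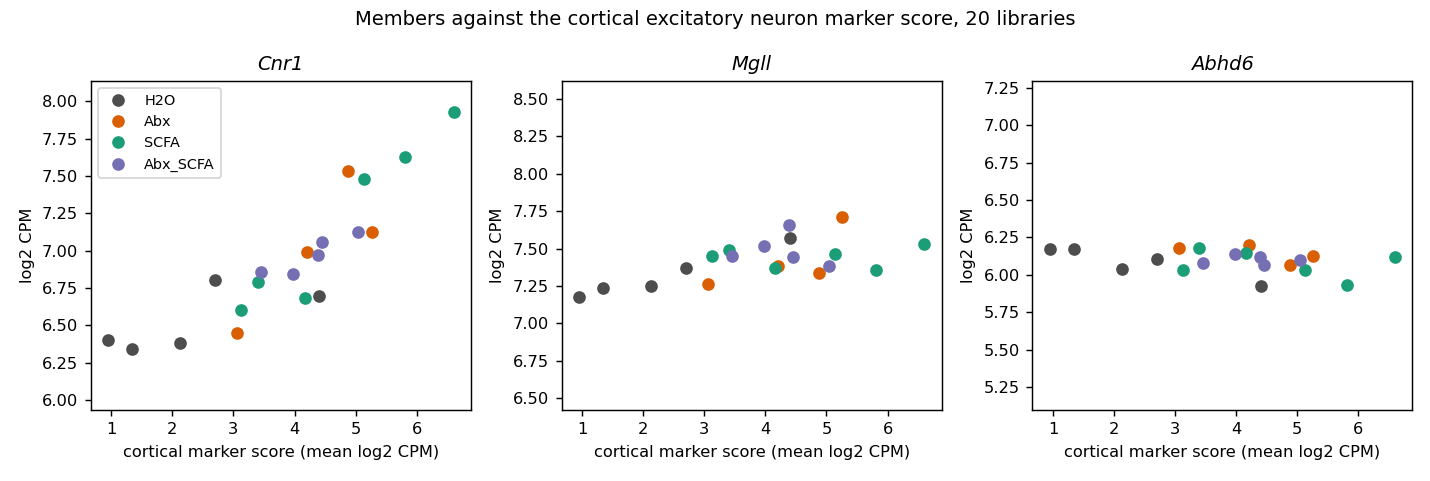
Log2 CPM of Cnr1, Mgll and Abhd6 (vertical axes, all spanning the same distance) against the cortical marker score (horizontal axes, mean log2 CPM), 1 point per library, coloured by group. Cnr1 climbs with the score in all 4 groups (r = 0.89), Mgll less so (0.61), and Abhd6 does not (-0.36).

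Cnr1 passed both tests with 2 scores. With the cortical score it had r = 0.89 (permutation p = 1e-05, the smallest that these permutations can give, adjusted p = 0.00042) and rho = 0.91 (adjusted p = 0.00021). Without the 2 libraries farthest from the median score, H2O replicates 3 and 1, r was 0.89. SCFA replicates 2 and 5 were not left out of this relation. After subtraction of group means r was 0.83. Within the rats numbered below 400 it was 0.83 (n = 9, exact permutation p = 0.00602, adjusted p = 0.0856), and within those above 400 0.95 (n = 11, permutation p = 2e-05, adjusted p = 0.00084). With the interneuron score, built from genes such as Cck and Pvalb of which cortex also expresses several, Cnr1 had r = 0.85 (adjusted p = 0.00042) and rho = 0.93 (adjusted p = 0.00021). For this score r was 0.86 without the 2 farthest libraries, again H2O replicates 3 and 1. It was 0.81 within groups, and 0.87 and 0.84 within the 2 number series. Cck ran from 5.46 CPM in H2O replicate 3 to 288 CPM in SCFA replicate 5. These libraries also had the lowest and highest Slc17a7 (3.09 and 1060 CPM). The interneuron score is thus not separate from the cortical one, and relations with the 2 scores are not counted as independent.

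Cnr1 and Daglb had a negative r with the score of medium spiny neurons, of -0.63 and -0.65 (permutation adjusted p = 0.0259 and 0.0236). Without the 2 libraries farthest from the median score, SCFA replicates 2 and 5, r was -0.16 and -0.38. With group means subtracted it was -0.62 and -0.64 (permutation adjusted p = 0.206 and 0.0703). Within the rats numbered below 400, which include neither of these libraries, it was -0.15 and -0.52 (adjusted p = 0.837 and 0.389). Spearman's rho was -0.34 for Cnr1 and -0.49 for Daglb (adjusted p = 0.316 and 0.109).

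Daglb and Mgll each had r = 0.61 with the cortical score (permutation adjusted p = 0.0274 for both), and rho of 0.58 and 0.54 (adjusted p = 0.0685 and 0.077). Without the 2 farthest libraries, H2O replicates 3 and 1, r was 0.60 and 0.40. For Mgll r was 0.80 within the rats numbered below 400 (n = 9, exact permutation p = 0.00611, adjusted p = 0.0856) and -0.07 within those above 400 (n = 11, permutation p = 0.841, adjusted p = 0.897). Neither passed the adjustment, and the difference between the series was not tested. For Daglb r was 0.53 and 0.71 within these series (permutation adjusted p = 0.389 and 0.0935). With group means subtracted r was 0.77 for Daglb (permutation adjusted p = 0.00574) and 0.52 for Mgll (adjusted p = 0.136). Mgll also had r = 0.59 with the interneuron score (permutation adjusted p = 0.0323) and rho = 0.48 (adjusted p = 0.112). Without the 2 farthest libraries, again H2O replicates 3 and 1, r was 0.37, and within the series 0.68 and 0.04.

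Dagla had no relation of this kind that passed with neuronal scores (r = 0.38 with the cortical one, permutation adjusted p = 0.221). Its r with the oligodendrocyte score was -0.70 (adjusted p = 0.00686), with rho = -0.60 (adjusted p = 0.0684). Without the 2 farthest libraries of this score, SCFA replicate 5 and Abx replicate 3, r was -0.61 (permutation adjusted p = 0.074). With group means subtracted it was -0.65 (adjusted p = 0.132). Within the number series it was -0.56 (n = 9, adjusted p = 0.389) and -0.80 (n = 11, adjusted p = 0.0514). None of these passed. The oligodendrocyte score itself was 10.5 ± 0.28 in H2O, 10.2 ± 0.68 in SCFA, 9.76 ± 0.49 in Abx and 10.1 ± 0.32 in Abx_SCFA (SD), the reverse of the order of the Dagla means at both ends. What part it had in the Dagla levels was not tested. Abhd6 and Napepld had no pair that passed.

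**Figure D4:**
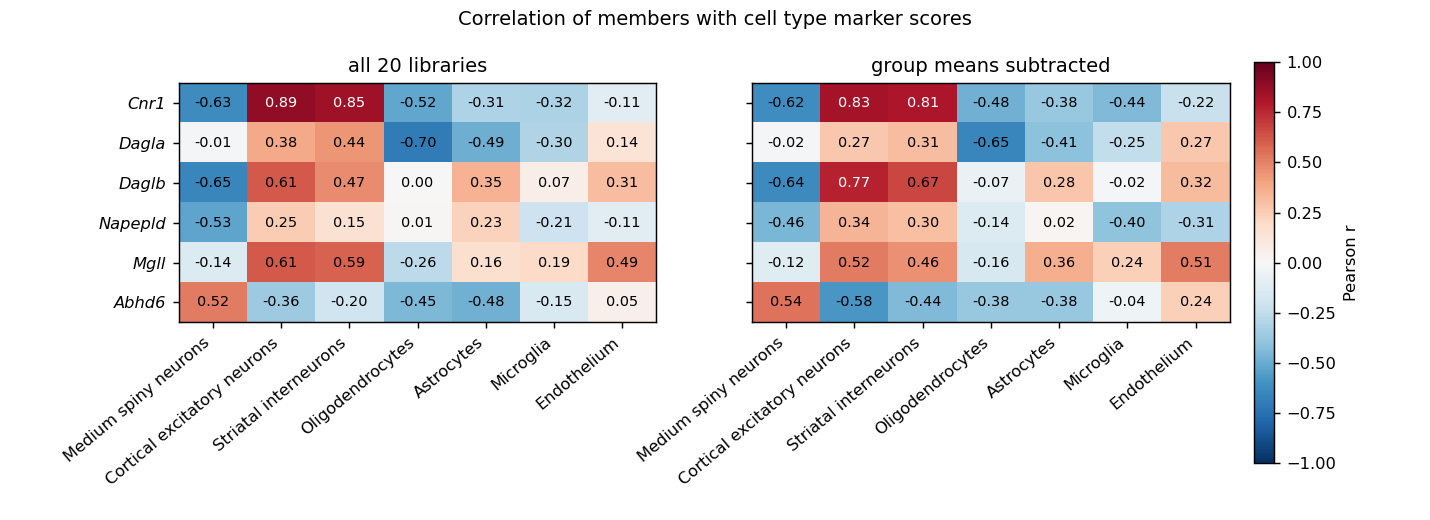
Pearson r (colour and printed value) of the 6 tested genes (rows) with 7 cell type marker scores (columns), over all 20 libraries on the left and with group means subtracted on the right. Cnr1 has 0.89 and 0.83 with the cortical score, and Dagla -0.70 and -0.65 with the oligodendrocyte score.

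The genes whose levels were most like those of each member over the 20 libraries were ranked by Pearson r of log2 CPM among 11685 other genes of at least 1 CPM. Effects of depth or dissection that libraries may share were not tested, so that these values are a description. Closest to Cnr1 were Grem1, a secreted antagonist of bone morphogenetic proteins (r = 0.98), Ube2ql1 (0.97) and Fxyd7, a regulator of the sodium pump (0.96), and the most opposed was Tfdp2 (-0.90). Cnr1 had 85 genes beyond an r of 0.9 in size, Daglb and Mgll 1 each, and the other tested members 0. Dagla was closest to Pacsin1 and Dlgap4 (0.89 each) and Magi2 (0.88), which encode synaptic endocytosis and scaffold proteins, and most opposed to Abcd3, a peroxisomal transporter (-0.88).

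Daglb was closest to Sema7a, a semaphorin (0.91), Clip2 (0.88) and the focal adhesion gene Zyx (0.86), with Tut1 at -0.84. Mgll was closest to the neuronal kinase gene Brsk1 (0.91), Map3k10 (0.86) and Foxq1 (0.85), with Ube4a at -0.81. For Abhd6 the closest were the phosphodiesterase gene Pde2a (0.88), Hipk4 (0.83) and Slc12a5, the neuronal potassium chloride cotransporter (0.80), with Lima1 at -0.88. Napepld had the least close neighbours, Atp2c1 (0.78), Ube2e3 (0.77) and Canx (0.77), with Flvcr2 at -0.78. Among the members themselves, Cnr1 had r = 0.62 with Daglb, 0.50 with Dagla, 0.39 with Mgll, 0.26 with Napepld and -0.31 with Abhd6. The pair of 2-AG hydrolases, Mgll and Abhd6, had -0.17, and the pair of diacylglycerol lipases 0.29.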

How the data were processed

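Raw counts of 20 libraries, with 1 row per symbol, were deposited in a single table. Rnor_6.0 was the genome, STAR 2.4.0 and FastQC 0.11.6 were among the tools, and limma is also named, per the submitters' processing notes. Per the labels, total RNA came from an RNeasy kit, the molecule was polyA RNA and cDNA was made with a SMARTer kit. No source used here names the counting tool, annotation or strand setting, so that reads of overlapping genes are uncertain. Columns were matched to samples by rat number. No pair of libraries agreed within sampling noise (chi-square per gene at least 6.77 over 190 pairs).

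Comparisons used glmQLFit and glmQLFTest of edgeR 4.0.16 (R 4.3.3), checked on simulated data, with TMM scaling, robust dispersion and 1 model of 4 groups, leaving 16 residual degrees of freedom. filterByExpr (10 counts, 15 in total) kept 12846 genes, over which p was adjusted. Log2 CPM used a prior count of 2. A count of 0 allows 3 counts, or 0.115 to 0.171 CPM. This covers counting error only. Alternatives were DESeq2 1.42.0, limma-voom 3.58.1, RLE scaling, no filter, the compared groups alone, a rat number term, a cortical covariate and left-out libraries. The rat number term set rats 301 to 312 against the others. It was fitted for Abx vs H2O, Abx_SCFA vs SCFA and the interaction only. It did not adjust for the split at 400, which coincides with fatty acids. Cortical and other scores average the kept markers of a list.

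Members, lists and alternatives were chosen with earlier results of these data known. Named genes are the members, the 2 listed pathway genes with the smallest p per contrast, and per member the 3 genes with the highest and the 1 with the lowest r. Cnr2, Cnrip1 and Abhd12 were named after their values were seen. Levels are not compared between genes, because transcript lengths were not used.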

Additional observations from a re-analysis of the deposited data

How the results depend on the processing

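No member was called under any alternative or after leaving out any 1 library (smallest adjusted p 0.0703, Cnr1 in SCFA vs H2O by DESeq2, and 0.0933 with 1 library left out). The share of all genes called in each of these fits is not given here, so that this is not read as a result about the members. Of 264 member values under the alternatives, 239 kept their sign and 25 changed it. The cause of the changes was not tested. With the cortical covariate, the log2 fold changes that changed sign were, in SCFA vs H2O, Abhd6 0.085, Cnr1 -0.034, Dagla -0.005, Daglb -0.11, Mgll -0.025 and Napepld -0.049, in Abx vs H2O Cnr1 -0.089 and Mgll -0.02, in Abx_SCFA vs H2O Cnr1 -0.131, and in the interaction Daglb 0.141, Mgll 0.096 and Napepld 0.144. Without SCFA replicates 2 and 5 they were Abhd6 0.017, Daglb -0.014 and Napepld -0.047 in SCFA vs H2O, Cnr1 0.044, Daglb 0.018 and Napepld 0.014 in Abx_SCFA vs SCFA, and Daglb 0.031 and Napepld 0.137 in the interaction. Daglb in Abx_SCFA vs H2O, -0.001, was 0.005 by DESeq2, RLE scaling or without these 2 replicates, 0.009 without the filter and 0.006 with the compared groups alone. Leaving out 1 library changed the sign of 43 of 720 values. The ranges were -0.019 to 0.041 (Abhd6) and -0.025 to 0.039 (Daglb) and -0.114 to 0.02 (Napepld) in Abx_SCFA vs H2O, -0.001 to 0.046 (Abhd6) and -0.03 to 0.111 (Dagla) in Abx_SCFA vs SCFA, -0.042 to 0.021 (Abhd6) in SCFA vs H2O, -0.26 to 0.085 (Cnr1) and -0.036 to 0.073 (Daglb) in Abx_SCFA vs Abx, -0.071 to 0.04 (Daglb) in Abx vs H2O, and -0.081 to 0.024 (Daglb), -0.132 to 0.047 (Mgll) and -0.104 to 0.065 (Napepld) in the interaction. Cnr1 in Abx vs H2O was 0.359 without Abx replicate 4 and 0.704 without Abx replicate 2.

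With the compared groups alone, Cnr1 in Abx_SCFA vs H2O had an unadjusted p of 0.000295 (adjusted p = 0.296). Without the filter, Faah entered the test with a log2 fold change of 1.14 ± 0.52 (SE) in Abx vs H2O (edgeR adjusted p = 0.659), on 1 to 20 counts. Of the member and score pairs, 2 passed without the 2 farthest libraries and 3 with group means subtracted, in place of 8. The 2 farthest libraries were chosen for each score separately. Cnr1 with the cortical and the interneuron score passed both ways, and Daglb with the cortical score passed with group means subtracted. Without the 2 farthest libraries r was 0.33 for Dagla and 0.09 for Napepld with medium spiny neurons, 0.24, -0.1 and -0.11 for Daglb with oligodendrocytes, microglia and endothelium, and 0.03 and 0.19 for Abhd6 with interneurons and microglia. With group means subtracted it was -0.02 for Daglb with microglia and -0.14 for Napepld with oligodendrocytes. No paired analysis was possible because the labels give no replicate numbers shared between groups.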

Other observations

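Faah lay beside another gene with hardly any counts. In the RefSeq order of GRCr8, the next protein-coding gene on 1 side, Nsun4, which encodes a mitochondrial RNA methyltransferase, had 0 to 6 counts per library. The gene after it, Uqcrh, a subunit of respiratory complex III, had 1879 to 2986, and Lrrc41 had 985 to 1524. On the other side, Dmbx1 had 0 to 3 counts. How the reads of this stretch were aligned and counted is not given in the sources used here, so that the Faah counts are not read as the enzyme's level.

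The spread within groups was smallest in Abx_SCFA for 5 of the 7 members, 1 of them Faah with 3 to 10 counts there. How often this held over all genes was not computed, so that the count is not read as a trait of these members. For Cnr1 the coefficient of variation was 8.56% in Abx_SCFA, 15% in H2O, 29.7% in Abx and 38.9% in SCFA. For Daglb it was 1.51% in Abx_SCFA and 6.2% to 10.5% in the other groups. The range of the cortical score was likewise narrower in Abx_SCFA (3.45 to 5.04) than in H2O (0.946 to 4.41), Abx (3.06 to 5.26) or SCFA (3.12 to 6.6). These differences in spread were not tested.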
